A study of Homo sapiens with 2 samples.

Results

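Transcripts for the proteins of the spliceosome and for its sequence-specific regulators were compared between libraries of A549 cells, an established human lung adenocarcinoma cell line. The genes were chosen by symbol alone. They are the rows of the deposited table whose symbol starts with SRSF or SFRS (SR proteins), HNRNP, SF3A, SF3B, SNRP, U2AF, PRPF or PTBP, with pseudogenes left out. This gave 68 of the 13137 genes in the table, of which 67 were protein-coding and 1, HNRNPU-AS1, was an antisense RNA, and 0 rows had to be left out as pseudogenes. The study asked which transcripts differ when the transcription factor SOX2 is silenced. One library came from A549 cells with the lentiviral construct H1TetO-shRNA-SOX2, a doxycycline-inducible H1 promoter driving 1 short hairpin RNA against SOX2, and the other from cells with H1TetO-shRNA-Con, the same construct with a scrambled hairpin. Each line was a puromycin-selected polyclone, and both were kept in doxycycline for 4 days, so both carried an induced hairpin and the antibiotic. mRNA was taken with oligo(dT) beads from 4 µg of total RNA of each line and counted by digital gene expression, a method in which each transcript molecule is meant to give 1 short sequence tag.

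In splicing, introns are removed from pre-mRNA by small nuclear ribonucleoproteins (snRNPs), particles built on a short RNA and a ring of Sm proteins. The U1 particle marks the 5′ splice site, the U2AF dimer and the U2 particle mark the 3′ end of the intron and its branch point, and the U4/U6.U5 tri-snRNP then joins to build the catalytic core. SR proteins mostly promote the use of the exons they bind, and heterogeneous nuclear ribonucleoproteins (hnRNPs) often repress them, so that the balance between these proteins sets many alternative splicing choices. Lung adenocarcinomas carry recurrent mutations in U2AF1, and SRSF1, HNRNPA1 and PTBP1 are much studied for their levels in tumours.

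The table held 2304184 gene tags for shRNA-Con and 2093816 for the library labelled shRNA-SOX2, with 1 library for each line. SOX2 was read 16 times in the control and 23 times in the other library (ratio 1.58, 95% interval 0.800 to 3.20, Fisher's exact test, adjusted p = 0.333). The direction is opposite to the label, although the interval includes 1. The paper reports silencing of SOX2 in these lines under doxycycline by Western blotting, which reads protein. The tags do not show that silencing, and the other library is therefore named by its label throughout. The table names its columns SC and S1, and they were matched to the lines by these letters alone. The SOX2 tags do not settle the match, and if the columns were exchanged, every direction given here would turn. The paper names genes that it found lower or higher in its RNA-Seq after silencing, and these were not used to check the match. In such bulk samples, fewer cells with a transcript and less of it per cell cannot be told apart. Of the markers of A549 and airway epithelium, 11 of 12 were listed, and they summed to 35732 and 41548 tags. The listed markers of fibroblasts (4 of 8), endothelium (1 of 6) and blood cells (5 of 10) summed to 46 and 56, 3 and 0, and 21 and 21 tags. Most epithelial tags came from KRT8, KRT18, KRT7, AKR1B10 and ALDH1A1. EPCAM (8 and 4 tags), MUC1 (18 and 17 tags) and CDH1 (50 and 50 tags) were low, and COL1A1 held most fibroblast tags (44 and 43). The epithelial markers went both ways, with KRT8 at 7702 and 12729 tags and KRT7 at 3899 and 1606. Each gene was tested with a two-sided Fisher's exact test that set its tags beside those of all other genes, adjusted by Benjamini-Hochberg over the 13137 genes, and is said to be called where the adjusted p was below 0.001. With 1 library per line there is no replicate check, the test compares these libraries and not the conditions, and the 95% intervals cover counting error only. Below, a pair of tag numbers gives shRNA-Con first, and a ratio divides a gene's share of all gene tags under the shRNA-SOX2 label by its share in the control. Median log2 fold changes are over genes with 20 tags or more in the sum of both libraries, which held for 67 of the 68 splicing genes, the exception being PRPF40B with 7 and 4 tags, and for 10045 genes of the table, whose median was -0.10.

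Of the 68 genes, 29 were called (42.6%), against 21.7% of all genes of the table. The splicing genes were abundant, with a median of 550.5 tags in both libraries together against 89 for all genes, and abundant genes are called more often. Among genes with at least 100 tags, 29 of 63 splicing genes (46.0%) were called, against 39.1% of all genes. In the library labelled shRNA-SOX2, 20 of the 68 were lower (29.4%, against 12.2% of all genes) and 9 were higher (13.2%, against 9.53%). With the same minimum of 100 tags, 20 of 63 were lower (31.7%, against 22.5% of all genes) and 9 were higher (14.3%, against 16.6%), so the share of higher calls lay above that of all genes or below it depending on the background. This split depends on the scaling, as it was 18 lower and 13 higher under TMM factors, 18 and 12 under the median ratio, and 24 and 7 when the tags were divided by all clean tags of each library. Of the 39 genes not called, 17 had an unadjusted p below 0.05. The calls assume no spread between cultures. When edgeR's exact test was given a biological coefficient of variation of 0.1, 5 genes were called, U2AF1, PRPF3, PRPF8, SNRPA and PTBP1, and with 0.2 the count was 0, with 6 genes at an unadjusted p below 0.05.

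The sizes of the differences were moderate. At least 1.5-fold lower were 18 of the 67 genes with 20 tags or more (26.9%, against 26.6% of all such genes), and at least 1.5-fold higher were 7 (10.4%, against 20.5%). At least 2-fold lower were 6 genes, U2AF1, PRPF3, PRPF8, SNRPA, PTBP1 and HNRNPUL2 (8.96%, against 13.0% of all genes). At least 2-fold higher were 0 of the 67, against 10.4% of all genes, and the largest increase was that of HNRNPL. These backgrounds include genes with few tags, whose folds vary more. Of the 6237 genes with at least 100 tags, 1586 were at least 1.5-fold lower and 1071 at least 1.5-fold higher. At least 2-fold lower were 713 of these 6237 genes, and 471 were at least 2-fold higher. Of the 63 splicing genes with at least 100 tags, 25 were at least 1.5-fold apart. The median log2 fold change of the splicing genes was -0.17, and 41 of the 67 lay below 0 and 26 above. Of all 10045 genes with 20 tags or more, 5536 lay below 0 and 4509 above. Set against the median of all these genes, 38 of the 67 lay below it and 29 above.

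**Figure D1:**
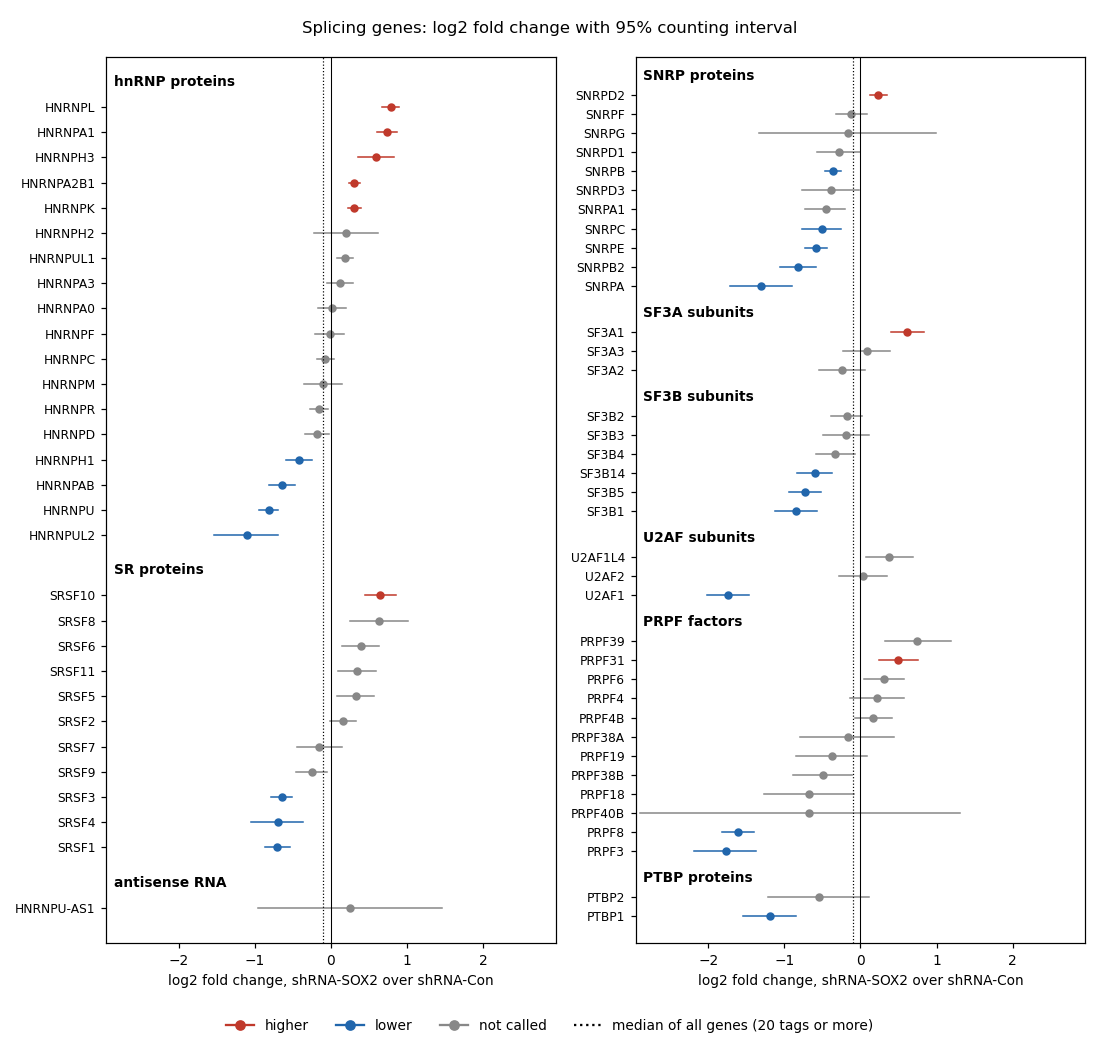
Log2 fold change of 67 of the 68 splicing genes by family, with positive values for genes higher in the library labelled shRNA-SOX2. Points are the values, lines the 95% counting intervals, colours the calls of Fisher's exact test, and the dotted line is the median of all genes with 20 tags or more. The values run from -1.77 for PRPF3 to 0.78 for HNRNPL, all 6 SF3B subunits lie below 0, and the PRPF and U2AF families hold genes far below 0 beside genes above it.

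The plot of log2 fold changes by family shows that the SF3B and PTBP genes all lay below 0 and that each of the other families of proteins held genes on both sides. The paragraphs that follow take the particles in the order in which they act on an intron.

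Promoters of 5 called genes are shown. U2AF1 of the U2AF dimer, SF3B1 and SF3B14 of the U2 particle and SNRPC of the U1 particle hold a searched core. These 4 were all called lower. HNRNPL, the hnRNP gene with the largest increase, was added as the gene that lay highest. SF3A1, SNRPD2, HNRNPH3 and SRSF10, which were called higher, also hold a core and are not shown. Further genes that were called lower and hold a core are not shown either. The sequences are from RefSeq (GRCh38.p14), 60 of the 68 genes had an entry, and where a gene had several starts the first listed was used. Each is the longest stretch of the 250 bases before the start that no exon of GENCODE release 29 covers, written 5′ to 3′ on the strand of the gene. Capitals mark matches, on either strand, to 3 cores that were searched: CATTGT or CTTTGT (SOX-type), CCGGAAG (ETS-type) and GCGCATGC (NRF1-type).
U2AF1, chr21:43107588-43107820, minus strand: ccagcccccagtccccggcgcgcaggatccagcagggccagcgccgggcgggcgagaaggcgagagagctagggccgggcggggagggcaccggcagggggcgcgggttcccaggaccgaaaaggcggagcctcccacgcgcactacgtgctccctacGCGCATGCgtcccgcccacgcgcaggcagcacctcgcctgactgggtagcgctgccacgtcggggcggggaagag
SF3B1, chr2:197435092-197435278, minus strand: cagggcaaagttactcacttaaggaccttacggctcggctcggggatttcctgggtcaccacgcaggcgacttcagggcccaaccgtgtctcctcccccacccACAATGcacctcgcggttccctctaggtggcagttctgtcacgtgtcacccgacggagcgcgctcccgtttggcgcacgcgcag
SF3B14, chr2:24076444-24076525, minus strand: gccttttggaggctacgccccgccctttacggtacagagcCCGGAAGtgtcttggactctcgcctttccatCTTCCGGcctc
SNRPC, chr6:34757255-34757405, plus strand: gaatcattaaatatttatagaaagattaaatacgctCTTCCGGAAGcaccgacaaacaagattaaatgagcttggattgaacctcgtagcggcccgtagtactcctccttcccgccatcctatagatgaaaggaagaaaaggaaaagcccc
HNRNPL, chr19:38852348-38852597, minus strand: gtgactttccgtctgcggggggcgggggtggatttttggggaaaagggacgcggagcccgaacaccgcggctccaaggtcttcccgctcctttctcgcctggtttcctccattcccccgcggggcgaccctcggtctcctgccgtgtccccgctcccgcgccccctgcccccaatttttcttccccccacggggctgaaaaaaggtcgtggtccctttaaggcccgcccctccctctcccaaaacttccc

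The stretch of U2AF1 held an NRF1-type core from -92 to -85 of the start, that of SF3B1 a SOX-type core on the opposite strand from -147 to -142, and those of SF3B14 and SNRPC each held an ETS-type core on both strands, overlapping by 4 bases in SNRPC. The stretch of HNRNPL held none of the 3. Over the 250 bases before the start, the ETS-type core was present in 21 of 60 splicing genes (35.0%), against 17.4% of 8293 genes with at least 20 tags and 8.82% of all 27305 promoters. It was present in 6 of 18 genes that were called lower, 2 of 8 called higher and 13 of 34 not called. The SOX-type core was present in 11 of 60 (18.3%, against 12.4% and 21.4%), with 3 of 18 lower, 1 of 8 higher and 7 of 34 not called. The NRF1-type core was present in 4 of 60 (6.67%, against 5.25% and 2.81%). These are matches of letters and not binding sites.

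U2AF recognises the end of the intron as a dimer, and of its subunits only U2AF1 was called. U2AF1, the small subunit that reads the AG at the 3′ splice site, had 511 and 139 tags (ratio 0.299, 95% interval 0.246 to 0.362, log2 fold change -1.74, Fisher's exact test, adjusted p = 7.99e-42), a ratio below which lay only that of PRPF3. U2AF2, the large subunit that binds the polypyrimidine tract, had 175 and 163 tags (ratio 1.03, 95% interval 0.823 to 1.28, log2 fold change 0.04, Fisher's exact test, adjusted p = 0.904) and was not called. U2AF1L4, a paralog of the small subunit, had 159 and 188 tags (log2 fold change 0.38, exact adjusted p = 0.0429) and was not called either. Within a library the ratio of U2AF1 tags to U2AF2 tags does not depend on any scaling of the libraries, and it was 2.92 in the control against 0.853 in the library labelled shRNA-SOX2, a change of 0.292-fold (95% interval 0.218 to 0.392). U2AF2 itself lay so near to 0 that its log2 fold change was -0.08 when all clean tags were the divisor.

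Both proteins specific to the U1 particle that the symbols covered were lower. SNRPA, the U1-A protein that binds a stem-loop of U1 RNA, had 193 and 71 tags (ratio 0.405, 95% interval 0.304 to 0.534, log2 fold change -1.30, Fisher's exact test, adjusted p = 8.47e-11). SNRPC, the U1-C protein that stabilises the pairing of U1 with the 5′ splice site, had 330 and 211 tags (log2 fold change -0.51, exact adjusted p = 0.000314), and it was not called with TMM factors (adjusted p = 0.00273 by the same exact test). RefSeq lists 20 pseudogenes named after SNRPC, so that tags of near-identical copies cannot be told from its own. SNRNP70, the third protein specific to U1, lies outside the symbols and was chosen after its values were seen. It had 503 and 558 tags (ratio 1.22, 95% interval 1.08 to 1.38, log2 fold change 0.29, Fisher's exact test, adjusted p = 0.00473) and was not called. The ratio of SNRPA to SNRPC was 0.585 in the control against 0.336 in the library labelled shRNA-SOX2, a change of 0.575-fold (95% interval 0.410 to 0.803).

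The 7 Sm proteins form the ring shared by the U1, U2, U4 and U5 particles, and their transcripts were not lower to the same degree. SNRPE had 1011 and 612 tags (ratio 0.666, 95% interval 0.602 to 0.737, log2 fold change -0.59, Fisher's exact test, adjusted p = 1.83e-14) and SNRPB, the Sm gene with the most tags, had 1696 and 1202 tags (ratio 0.780, 95% interval 0.724 to 0.840, log2 fold change -0.36, Fisher's exact test, adjusted p = 4.19e-10). SNRPD2 was the member on the other side, with 1285 and 1372 tags (ratio 1.17, 95% interval 1.09 to 1.27, log2 fold change 0.23, Fisher's exact test, adjusted p = 0.000189), a call that was lost when all clean tags were the divisor (log2 fold change 0.12, exact adjusted p = 0.0807). SNRPD3 (150 and 104 tags), SNRPD1 (255 and 190 tags), SNRPF (441 and 368 tags) and SNRPG (16 and 13 tags) were not called, with log2 fold changes of -0.39, -0.29, -0.12 and -0.16. The ratio of SNRPE to SNRPD2 was 0.787 in the control against 0.446 in the library labelled shRNA-SOX2, a change of 0.567-fold (95% interval 0.499 to 0.644). RefSeq names 11 pseudogenes after SNRPE and 20 after SNRPG, which makes these values uncertain.

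In the U2 particle the calls of SF3B and SF3A subunits had opposite directions. All 6 SF3B subunits had a log2 fold change below 0 and 3 of them were called (50%, against 22.5% of all genes with at least 100 tags called lower). SF3B1, the subunit that clasps the branch-point helix, had 325 and 164 tags (ratio 0.555, 95% interval 0.457 to 0.672, log2 fold change -0.85, Fisher's exact test, adjusted p = 3.71e-09). SF3B5, a small subunit, had 527 and 289 tags (ratio 0.603, 95% interval 0.521 to 0.698, log2 fold change -0.73, Fisher's exact test, adjusted p = 3.26e-11). SF3B14, the subunit that touches the branch-point adenosine, had 423 and 253 tags (ratio 0.658, 95% interval 0.561 to 0.771, log2 fold change -0.60, Fisher's exact test, adjusted p = 8.27e-07). The other subunits, SF3B4 (308 and 223 tags), SF3B3 (203 and 162 tags) and SF3B2 (444 and 356 tags), were not called, with log2 fold changes of -0.33, -0.19 and -0.18.

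SF3A1, a scaffold of the SF3A complex, was higher, with 305 and 424 tags (ratio 1.53, 95% interval 1.32 to 1.78, log2 fold change 0.61, Fisher's exact test, adjusted p = 1.20e-07). SF3A2 (208 and 160 tags) and SF3A3 (182 and 175 tags) were not called, with log2 fold changes of -0.24 and 0.08. The ratio of SF3B1 to SF3A1 tags was 1.07 in the control against 0.387 in the library labelled shRNA-SOX2, a change of 0.363-fold (95% interval 0.284 to 0.464). Of the proteins that bind the stem-loops of U2 RNA, SNRPB2 (U2-B″) was lower with 438 and 225 tags (ratio 0.565, 95% interval 0.479 to 0.665, log2 fold change -0.82, Fisher's exact test, adjusted p = 1.57e-11). Its partner SNRPA1 (U2-A′) had 307 and 203 tags (log2 fold change -0.46, exact adjusted p = 0.00192) and was not called, although it was with all clean tags as the divisor (exact adjusted p = 6.27e-05).

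The tri-snRNP held genes that lay far apart. PRPF3, a protein of the U4/U6 particle, had 247 and 66 tags (ratio 0.294, 95% interval 0.221 to 0.387, log2 fold change -1.77, Fisher's exact test, adjusted p = 8.92e-21), the lowest fold of the 68 genes. PRPF8, the large U5 protein at the centre of the catalytic core, had 787 and 235 tags (ratio 0.329, 95% interval 0.283 to 0.381, log2 fold change -1.61, Fisher's exact test, adjusted p = 2.58e-57), the lowest adjusted p of the 68. Against this, PRPF31, which binds the U4 particle and bridges it to U5, was higher with 231 and 296 tags (ratio 1.41, 95% interval 1.18 to 1.68, log2 fold change 0.50, Fisher's exact test, adjusted p = 0.000426), although not with all clean tags as the divisor (exact adjusted p = 0.00877).

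The other genes of the 68 that were grouped here with the tri-snRNP were not called. PRPF4, which binds PRPF3, had 129 and 136 tags (log2 fold change 0.21, exact adjusted p = 0.375), and PRPF6, a bridge within the tri-snRNP, had 224 and 252 tags (log2 fold change 0.31, exact adjusted p = 0.0569). The kinase PRPF4B had 275 and 281 tags (log2 fold change 0.17, exact adjusted p = 0.299), and PRPF38A had 52 and 42 tags (log2 fold change -0.17, exact adjusted p = 0.727). The ratio of PRPF3 to PRPF4 was 1.91 in the control against 0.485 in the library labelled shRNA-SOX2, a change of 0.253-fold (95% interval 0.173 to 0.370), and that of PRPF8 to PRPF6 was 3.51 in the control against 0.933 in the library labelled shRNA-SOX2, a change of 0.265-fold (95% interval 0.209 to 0.337). EFTUD2, the U5 GTPase that binds PRPF8 and lies outside the symbols, was called higher with 382 and 506 tags (ratio 1.46, 95% interval 1.27 to 1.67, log2 fold change 0.54, Fisher's exact test, adjusted p = 2.06e-07), and the ratio of PRPF8 to EFTUD2 was 2.06 in the control against 0.464 in the library labelled shRNA-SOX2. EFTUD2 was below the 1.5-fold set for naming genes outside the symbols and was chosen after its values were seen.

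The remaining PRPF genes encode factors of early recognition and of the later steps. PRPF39, a U1-associated protein, had 76 and 116 tags (log2 fold change 0.75, exact adjusted p = 0.00167), just outside the threshold, and it was called with TMM factors (exact adjusted p = 0.000570). PRPF18, a factor of the second catalytic step, PRPF38B and PRPF19, the ubiquitin ligase of a complex that activates the spliceosome, had 70 and 40 tags, 146 and 94 tags and 97 and 68 tags and were not called.

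Of the 11 SR proteins, 3 were lower (27.3%), 1 was higher (9.09%) and 7 were not called. Of all genes with at least 100 tags, 22.5% were lower and 16.6% higher. The median log2 fold change of the SR genes was 0.15. The 2 with the most tags were both lower. SRSF3, the smallest SR protein and an adaptor for mRNA export, had 1179 and 684 tags (ratio 0.638, 95% interval 0.580 to 0.702, log2 fold change -0.65, Fisher's exact test, adjusted p = 6.95e-20), and SRSF1, the founding SR protein, had 813 and 454 tags (ratio 0.615, 95% interval 0.547 to 0.690, log2 fold change -0.70, Fisher's exact test, adjusted p = 6.02e-16). SRSF4 was the other lower member, with 202 and 113 tags (ratio 0.616, 95% interval 0.485 to 0.779, log2 fold change -0.70, Fisher's exact test, adjusted p = 0.000156). SRSF10, which acts as a repressor when it is dephosphorylated, was higher with 338 and 481 tags (ratio 1.57, 95% interval 1.36 to 1.81, log2 fold change 0.65, Fisher's exact test, adjusted p = 2.38e-09).

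The 7 SR genes that were not called ran from SRSF9 with 486 and 370 tags (log2 fold change -0.26, exact adjusted p = 0.0300) to SRSF8 with 99 and 139 tags (log2 fold change 0.63, exact adjusted p = 0.00360). SRSF6 had 259 and 308 tags (log2 fold change 0.39, exact adjusted p = 0.00520), and both SRSF6 and SRSF8 were called higher with TMM factors. SRSF9 was called lower with all clean tags as the divisor (exact adjusted p = 0.000961). SRSF2 (554 and 560 tags), SRSF5 (264 and 301 tags), SRSF7 (220 and 180 tags) and SRSF11 (253 and 292 tags) had log2 fold changes of 0.15, 0.33, -0.15 and 0.34. Between SR proteins of similar build, the ratio of SRSF1 to SRSF9 was 1.67 in the control against 1.23 in the library labelled shRNA-SOX2, and that of SRSF3 to SRSF7 was 5.36 in the control against 3.80 in the library labelled shRNA-SOX2.

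The 18 hnRNP proteins were the family with most genes, most tags and most of the higher calls, 5 of the 9. Of the family 27.8% were called higher and 22.2% lower, against 16.6% and 22.5% of all genes with at least 100 tags. HNRNPL, which binds CA-rich elements, had 1114 and 1743 tags (ratio 1.72, 95% interval 1.60 to 1.86, log2 fold change 0.78, Fisher's exact test, adjusted p = 5.93e-45), the largest increase of the 68 genes. HNRNPA1, a widely acting exon repressor, had 758 and 1147 tags (ratio 1.67, 95% interval 1.52 to 1.83, log2 fold change 0.74, Fisher's exact test, adjusted p = 1.07e-26). RefSeq names 75 pseudogenes after HNRNPA1, more than after any other of the 68 genes, so its tags may include those of copies. It names 17 after HNRNPA3, 9 after HNRNPC, 5 each after HNRNPK and SRSF3, and 4 after SNRPF, to which the same limit applies. HNRNPH3 had 254 and 348 tags (ratio 1.51, 95% interval 1.28 to 1.78, log2 fold change 0.59, Fisher's exact test, adjusted p = 4.39e-06).

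The 2 hnRNP genes with the most tags were higher by smaller ratios. HNRNPA2B1, the gene with the most tags of all 68, had 3441 and 3873 tags (ratio 1.24, 95% interval 1.18 to 1.30, log2 fold change 0.31, Fisher's exact test, adjusted p = 1.45e-18), and HNRNPK, which binds C-rich tracts, had 1892 and 2129 tags (ratio 1.24, 95% interval 1.16 to 1.32, log2 fold change 0.31, Fisher's exact test, adjusted p = 1.69e-10). HNRNPUL1 had 1488 and 1536 tags (log2 fold change 0.18, exact adjusted p = 0.00199) and was called with TMM factors (exact adjusted p = 7.26e-06).

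The lower hnRNP genes included HNRNPU and HNRNPUL2. HNRNPU, the scaffold attachment factor that binds chromatin-associated RNA, had 1518 and 782 tags (ratio 0.567, 95% interval 0.519 to 0.618, log2 fold change -0.82, Fisher's exact test, adjusted p = 5.01e-38), and its relative HNRNPUL2 had 166 and 70 tags (ratio 0.464, 95% interval 0.346 to 0.617, log2 fold change -1.11, Fisher's exact test, adjusted p = 2.05e-07). The ratio of HNRNPU to the third relative, HNRNPUL1, was 1.02 in the control against 0.509 in the library labelled shRNA-SOX2, a change of 0.499-fold (95% interval 0.445 to 0.559). HNRNPU-AS1, the antisense RNA at this locus, had 13 and 14 tags, and the strand used in counting is not given in the sources used here, so tags of overlapping sense and antisense RNA could not be told apart.

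HNRNPAB was lower with 787 and 459 tags (ratio 0.642, 95% interval 0.571 to 0.721, log2 fold change -0.64, Fisher's exact test, adjusted p = 3.14e-13), and HNRNPH1, which binds G-rich runs, was lower with 699 and 474 tags (ratio 0.746, 95% interval 0.663 to 0.840, log2 fold change -0.42, Fisher's exact test, adjusted p = 5.44e-06). Members of a subfamily thus lay on both sides, HNRNPH1 below and HNRNPH3 above, with HNRNPH2 (94 and 98 tags) and HNRNPF (506 and 454 tags) not called. The ratio of HNRNPA1 to HNRNPAB was 0.963 in the control against 2.50 in the library labelled shRNA-SOX2, a change of 2.59-fold (95% interval 2.23 to 3.01). The other uncalled hnRNP genes were HNRNPD (771 and 618 tags), HNRNPR (1373 and 1117 tags), HNRNPM (289 and 245 tags), HNRNPC (1348 and 1164 tags), HNRNPA0 (511 and 469 tags) and HNRNPA3 (551 and 543 tags), with log2 fold changes between -0.18 and 0.12. With all clean tags as the divisor HNRNPD and HNRNPR were called lower.

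PTBP1, the polypyrimidine tract binding protein that represses exons in most non-neuronal cells, had 251 and 100 tags (ratio 0.438, 95% interval 0.344 to 0.555, log2 fold change -1.19, Fisher's exact test, adjusted p = 4.43e-12). PTBP2, its paralog of neural cells, had 53 and 33 tags (log2 fold change -0.55, exact adjusted p = 0.204) and was not called. HNRNPL and PTBP1, which bind CA-rich and pyrimidine-rich stretches beside exons, lay on opposite sides. Their ratio was 4.44 in the control against 17.4 in the library labelled shRNA-SOX2, a change of 3.93-fold (95% interval 3.06 to 5.06).

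**Figure D2:**
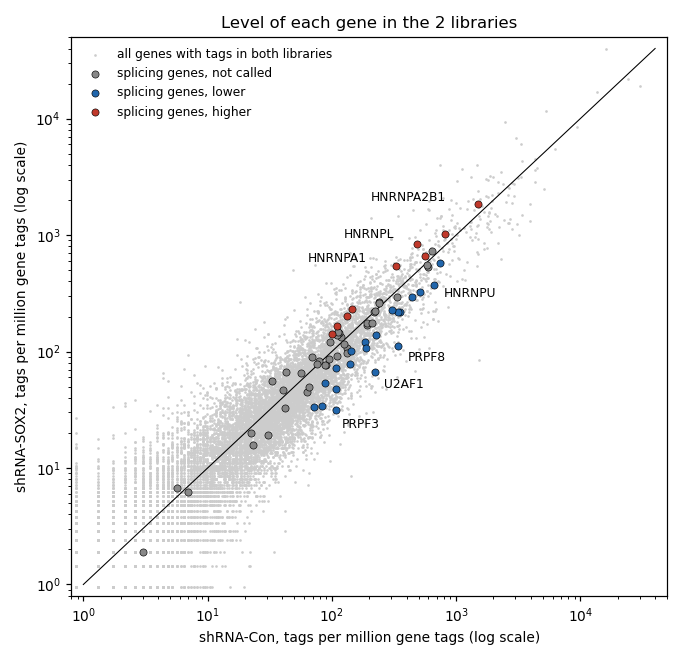
Level of each gene, in tags per 1000000 gene tags, in shRNA-Con (horizontal, log scale) and the library labelled shRNA-SOX2 (vertical, log scale). Small grey points are all genes with tags in both libraries, larger points the splicing genes coloured by call, and the line marks equal levels. The splicing genes spread along the line from 3.04 for PRPF40B to 1493 for HNRNPA2B1 in shRNA-Con, and PRPF3, U2AF1 and PRPF8 lie farthest below it.

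The plot of levels in the libraries places the splicing genes among all genes, and those with the largest decreases had intermediate levels. U2AF1 had 222 tags per 1000000 gene tags in the control and 66.4 in the other library, PRPF8 had 342 and 112, and PRPF3 had 107 and 31.5. A count of 0 would allow up to 3 tags, which is 1.30 and 1.43 tags per 1000000, and all 68 splicing genes lay above that limit in both libraries, PRPF40B nearest to it.

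Tags were also summed over each family. All 68 genes together held 35027 and 30345 tags (ratio 0.953, 95% interval 0.939 to 0.968), which is 1.52% and 1.45% of the gene tags. That ratio was 1.003 under TMM factors, 1.001 by the median ratio and 0.881 by all clean tags, so that no direction can be given for the sum. The SNRP genes held 6122 and 4571 tags (ratio 0.822, 95% interval 0.791 to 0.854), the SF3B genes 2230 and 1447 tags (ratio 0.714, 95% interval 0.668 to 0.763), the PRPF genes 2591 and 1780 tags (ratio 0.756, 95% interval 0.711 to 0.803) and the PTBP genes 304 and 133 tags (ratio 0.481, 95% interval 0.390 to 0.592). These 4 sums were below 1 under every scaling and without the gene with most tags, although the PRPF sum was 0.942 without PRPF8, with an interval that includes 1, as did that of PTBP2 alone at 0.685.

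The sums of the U2AF, SF3A and SR genes changed direction without 1 gene. The U2AF genes held 845 and 490 tags (ratio 0.638, 95% interval 0.570 to 0.714), and 1.16 was the ratio without U2AF1. The SF3A genes held 695 and 759 tags (ratio 1.20, 95% interval 1.08 to 1.33), and 0.945 was the ratio without SF3A1. The SR genes held 4667 and 3882 tags (ratio 0.915, 95% interval 0.877 to 0.955), which was 1.01 without SRSF3. The hnRNP genes held 17560 and 17269 tags (ratio 1.08, 95% interval 1.06 to 1.11), with 1.14 under TMM factors and 1.0005 with all clean tags as the divisor.

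**Figure D3:**
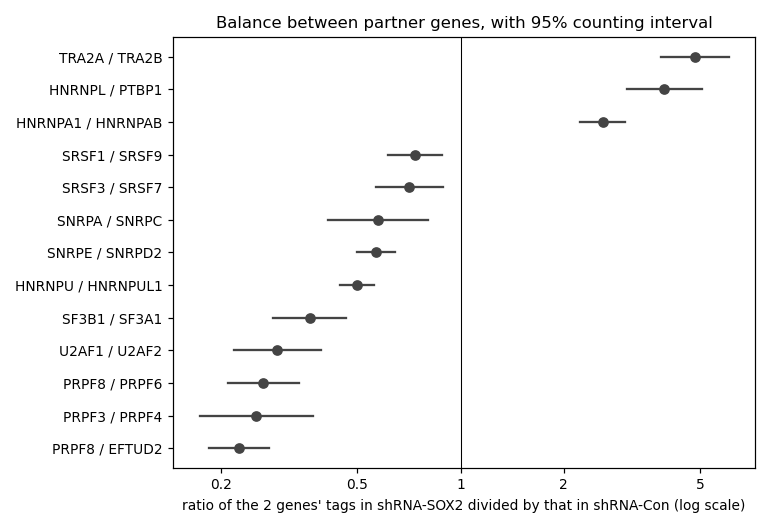
Change in the balance between 13 pairs of genes, as the ratio of their tags in the library labelled shRNA-SOX2 divided by the ratio in the control (log scale). Points are the values and lines the 95% counting intervals, and no interval crosses 1. PRPF8 against EFTUD2 lies lowest at 0.225 and TRA2A against TRA2B highest at 4.82.

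The plot of partner ratios draws the pairs already given together with the TRA2 pair described next. Scaling cannot alter these values, since both genes of a pair are read in the same library. The 13 pairs were chosen after the values were seen, mostly for genes that lay apart, so the plot describes how far partners differed and carries no test.

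The splicing genes outside these symbols were read from 9 lists, of which 170 genes were in the table. Of these, 45 were called (26.5%, against 21.7% of all genes), 32 lower and 13 higher, and their median log2 fold change was -0.27. All 45 were among the 163 genes with 20 tags or more, where 27.6% were called against 28.0% of all genes, 19.6% lower against 15.8% and 7.98% higher against 12.2%. With 100 tags or more, 42 of 140 were called (30.0%, against 39.1%). Of these, 30 were lower (21.4%, against 22.5% of all such genes) and 12 higher (8.57%, against 16.6%). SR-related coactivators had 7 lower and 2 higher of 23, other hnRNP-like proteins 6 and 4 of 23, snRNP proteins 5 and 2 of 30, exon junction and export complexes 5 and 1 of 20, LSM proteins 3 and 1 of 9, and PRPF19-complex and catalytic-step factors 3 and 1 of 28. The 3 lower LSM calls include NAA38, which the table lists as LSMD1 and for which no part in splicing is claimed here. Cell-type regulators had 2 lower and 1 higher of 16, snRNP assembly 1 and 0 of 14, and SR protein kinases 0 and 1 of 7.

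**Figure D4:**
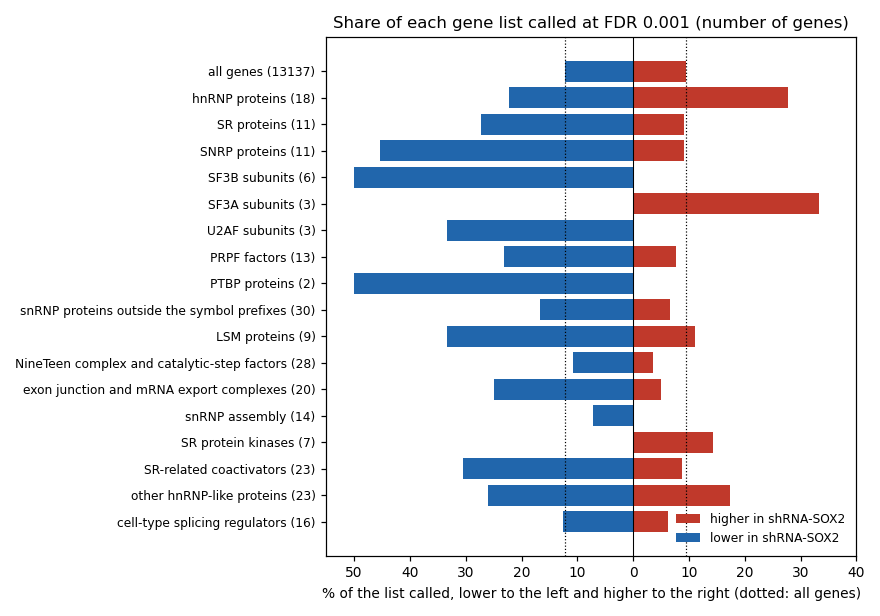
Percent of the genes of each family and list that were called, lower in the library labelled shRNA-SOX2 to the left and higher to the right, with the number of genes in parentheses. Dotted lines mark the shares over all 13137 genes, 12.2% lower and 9.53% higher. Among all genes with at least 100 tags, which most of the families' genes have, these shares were 22.5% and 16.6%. The SNRP, SF3B and PTBP families reach farthest to the left and the SF3A and hnRNP families farthest to the right, and families of 2 to 6 genes move in large steps.

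In the plot of called shares, the lists outside the symbols also had more lower than higher calls, except the kinases. All genes of the table leaned the same way, with 1597 lower and 1252 higher calls. The TRA2 paralogs, coactivators that bind GAA-rich exonic enhancers, went opposite ways. TRA2A had 333 and 664 tags (ratio 2.19, 95% interval 1.92 to 2.51, log2 fold change 1.13, Fisher's exact test, adjusted p = 6.84e-32), TRA2B had 421 and 174 tags (ratio 0.455, 95% interval 0.379 to 0.544, log2 fold change -1.14, Fisher's exact test, adjusted p = 2.31e-18), and their ratio was 0.791 in the control against 3.82 in the library labelled shRNA-SOX2, a change of 4.82-fold (95% interval 3.85 to 6.05). Further coactivators were lower, RBM39 with 525 and 276 tags (log2 fold change -0.79, exact adjusted p = 9.70e-13) and PNISR with 86 and 38 tags (log2 fold change -1.04, exact adjusted p = 0.000687).

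Other proteins of the particles were read from these lists. PHF5A, a small subunit of SF3B, had 129 and 56 tags (log2 fold change -1.07, exact adjusted p = 1.35e-05), which is the same side as SF3B1, SF3B5 and SF3B14. SART1, which helps the tri-snRNP to join, had 228 and 115 tags (log2 fold change -0.85, exact adjusted p = 1.42e-06), and ZMAT2, a protein of the spliceosome before activation, had 218 and 54 tags (log2 fold change -1.88, exact adjusted p = 6.20e-20). SNRNP25, of the minor U11/U12 particle, was higher with 62 and 126 tags (log2 fold change 1.16, exact adjusted p = 8.63e-07). Of the LSM ring proteins that bind U6 RNA or act in mRNA decay, LSM2 had 253 and 85 tags (log2 fold change -1.44, exact adjusted p = 7.23e-16), LSM1 had 137 and 54 tags (log2 fold change -1.21, exact adjusted p = 5.09e-07), and LSM5 was higher with 197 and 291 tags (log2 fold change 0.70, exact adjusted p = 1.05e-06).

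The 3 largest decreases among these lists were those of CDC40, BUD31 and PPIL1. CDC40, a factor of the second step, had 68 and 14 tags (log2 fold change -2.14, exact adjusted p = 1.06e-07), BUD31 had 342 and 74 tags (ratio 0.238, 95% interval 0.183 to 0.307, log2 fold change -2.07, Fisher's exact test, adjusted p = 2.97e-35), and the prolyl isomerase PPIL1 had 112 and 27 tags (log2 fold change -1.91, exact adjusted p = 7.53e-11). Downstream of splicing, CASC3 of the exon junction complex had 185 and 62 tags (log2 fold change -1.44, exact adjusted p = 8.87e-12), and the export factors THOC6 and SARNP had 82 and 21 tags (log2 fold change -1.83, exact adjusted p = 1.37e-07) and 361 and 200 tags (log2 fold change -0.71, exact adjusted p = 1.21e-07). COIL, the marker protein of Cajal bodies where snRNPs mature, had 59 and 20 tags (log2 fold change -1.42, exact adjusted p = 0.000329). Of the kinases that phosphorylate SR proteins, SRPK1 was higher with 102 and 159 tags (log2 fold change 0.78, exact adjusted p = 0.000101), and the other 6 were not called.

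Among hnRNP-like proteins outside the symbols, KHSRP, MATR3 and KHDRBS1 were higher, with 159 and 339 tags (log2 fold change 1.23, exact adjusted p = 9.68e-19), 337 and 597 tags (log2 fold change 0.96, exact adjusted p = 4.12e-22) and 249 and 373 tags (log2 fold change 0.72, exact adjusted p = 7.54e-09). FUBP1, DAZAP1 and ELAVL1 were lower, with 152 and 55 tags (log2 fold change -1.33, exact adjusted p = 8.72e-09), 282 and 104 tags (log2 fold change -1.30, exact adjusted p = 2.54e-15) and 187 and 107 tags (log2 fold change -0.67, exact adjusted p = 0.000547). Of the regulators known for cell-type-specific exons, MBNL2 and QKI were lower with 156 and 77 tags (log2 fold change -0.88, exact adjusted p = 4.53e-05) and 363 and 210 tags (log2 fold change -0.65, exact adjusted p = 1.25e-06), and NOVA1, a neuronal regulator, was higher at low depth with 10 and 34 tags (log2 fold change 1.90, exact adjusted p = 0.000514). Some relatives of the chosen families stand in the table under older symbols that the prefixes miss, and 3 of them were chosen after their values were seen. HNRPDL (HNRNPDL) was lower with 1532 and 1063 tags (log2 fold change -0.39, exact adjusted p = 1.43e-10), and ROD1 (PTBP3) and HNRPLL (HNRNPLL) were not called, with 396 and 312 and with 213 and 201 tags.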

How the data were processed

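The authors deposited 1 table with a row per Entrez Gene ID, holding the tag counts of each library without normalization and their TPM, the count scaled to the clean tags. Its columns SC and S1 were read as shRNA-Con and shRNA-SOX2 from these letters alone. The deposited log2 ratio, P and FDR columns hold the authors' own comparison and were not used. The submitters' processing notes name hg19. The aligner is not given in the sources used here. Depth was 2304184 and 2093816 gene tags, 65.5% and 60.6% of the clean tags (3516266 and 3456234, from counts and deposited TPM), and columns left unmapped numbered 0. The 19 rows without a symbol (0.0535% and 0.0372% of gene tags) were kept by ID, 22 symbols turned into dates were restored, and 13086 IDs were found in RefSeq.

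Counts were divided by the gene tags of the library. A replicate-based count model could not be fitted to 1 library per line, so genes were compared by Fisher's exact test (two-sided), adjusted after Benjamini-Hochberg over 13137 genes at 0.001, the study's FDR (Python 3.11.15, scipy 1.17.1). Intervals of genes and summed tags are 95% Clopper-Pearson, and those of the pairs are exact 95% intervals of a conditional odds ratio. TMM factors (1.03 and 0.975) and exact tests with an assumed spread came from edgeR 4.0.16, median-ratio factors (1.07 and 0.930) from DESeq2 1.42.0 (R 4.3.3). The steps were tested on simulated data.

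Any of the 68 genes could be named, with full values for those called and the 2 with most tags per family. Outside the symbols, up to 3 called genes at least 1.5-fold apart in each direction were named per list. EFTUD2, SNRNP70, NAA38, HNRPDL, ROD1 and HNRPLL fall outside this rule and were chosen after their values were seen. The genes and lists were chosen with earlier results of these data known. The pairs, the motifs and the backgrounds of genes with at least 20 or 100 tags were chosen after seeing the data. The values of 1 of the 68 genes are not reported here by name, and the counts include it.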

Additional observations from a re-analysis of the deposited data

How the results depend on the processing

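No paired analysis was possible because each line has 1 library, and for the same reason no library could be left out. The number of called splicing genes was 29, and 30 to 31 under the other scalings. With edgeR's exact test it was 5 at an assumed biological coefficient of variation of 0.1 and 0 at 0.2, where 6 had an unadjusted p below 0.05. Of the 170 genes outside the symbols, 45 were called, 82 at an FDR of 0.05, 13 at an assumed coefficient of 0.1 and 1, BUD31, at 0.2. Of all 13137 genes, 1166 were called at an assumed coefficient of 0.1 and 113 at 0.2. A fold of 2 in place of 1.5 left 6 in place of 25 splicing genes.

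Ratios of summed tags moved beyond their counting interval as follows, with TMM factors, the median ratio and clean tags in that order. The SR sum (0.915) gave 0.963, 0.961 and 0.846, the hnRNP sum (1.08) 1.14, 1.14 and 1.0005, and the SNRP sum (0.822) 0.864, 0.863 and 0.760. With clean tags the SF3B sum (0.714) gave 0.660 and the PRPF sum (0.756) 0.699. Without the gene with most tags, the SR (1.01), SF3A (0.945) and U2AF (1.16) sums changed direction, and the hnRNP, PRPF and PTBP sums were 1.04, 0.942 and 0.685. Among uncalled genes near 0 the log2 fold change of HNRNPF turned to 0.055 with TMM factors and 0.052 with the median ratio, and clean tags turned HNRNPA0 (-0.10), U2AF2 (-0.078) and SF3A3 (-0.032). The median log2 fold change of all genes shifted by 0.07, 0.07 and -0.11 under the scalings, which accounts for these turns by construction. Of the 97 genes that the naming rule covers, 57 were called, and 4, 4 and 3 of these lost the call under the 3 scalings, with 4, 3 and 4 others called in turn.

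Depth limits the least abundant genes, of which PRPF40B, SNRPG and HNRNPU-AS1 had intervals that allow a difference of 1.5-fold in either direction.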
